A study of Mus musculus with 24 samples.

Results

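The 10 genes described here, Pecam1, Cdh5, Kdr, Car4, Ednrb, Aplnr, Gpihbp1, Plvap, Vwf and Prx, mark the endothelium of lung capillaries and larger vessels. They were chosen by name, and all 10 were present among the 23891 genes of the table and among the 17744 genes tested, which had a mean of at least 1 CPM (read counts scaled to the same library total in every sample) over all samples. RNA-Seq was performed on the left lung lobe of 24 C57BL/6 mice in 4 groups. Naïve adult mice (20 wk old, n = 5) and naïve aged mice (80 wk old, n = 5) are both labelled saline. Aged mice of the HDM group (80 wk old, n = 7) were given 50 µg of house-dust mite extract per intranasal dose, an allergen that causes asthma-like inflammation. Aged mice of the HDM + Dex group (80 wk old, n = 7) also received the glucocorticoid drug dexamethasone (Dex), 4 mg/kg by injection at intervals of 72 h. Both challenged groups were sampled 24 h after their final HDM dose, and no adult mice were challenged among these samples.

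Endothelial cells line every blood vessel, and in the lung alveolus they form a dense capillary net through which gas is exchanged. That net holds 2 kinds of capillary cell. Aerocytes are large, lie against the alveolar epithelium and are marked by Car4, Ednrb and Apln. General capillary cells carry Aplnr, Gpihbp1 and Plvap, control vessel tone and act as the progenitors of both kinds. Vwf is made mainly by the endothelium of larger vessels, whereas Pecam1, Cdh5 and Kdr are shared by most endothelial cells. These are whole-lobe samples, so fewer cells of a type and less RNA per cell cannot be told apart.

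Promoter sequence was found in RefSeq (GRCm38.p6) for 4 of the 10 genes, Kdr, Prx, Car4 and Ednrb, as the 250 bases before and 50 after a start site. The promoters of the VEGF receptor Kdr and of the aerocyte genes Ednrb and Car4 are shown because the levels of these 3 genes are compared most closely below, and capitals mark any match to the ETS-factor motifs CCGGAA or AGGAAG on either strand. The Kdr promoter lies at chr5:75978406-75978705 (minus strand), the Car4 promoter at chr11:84957504-84957803 (plus strand) and the Ednrb promoter at chr14:103843652-103843951 (minus strand).
Kdr: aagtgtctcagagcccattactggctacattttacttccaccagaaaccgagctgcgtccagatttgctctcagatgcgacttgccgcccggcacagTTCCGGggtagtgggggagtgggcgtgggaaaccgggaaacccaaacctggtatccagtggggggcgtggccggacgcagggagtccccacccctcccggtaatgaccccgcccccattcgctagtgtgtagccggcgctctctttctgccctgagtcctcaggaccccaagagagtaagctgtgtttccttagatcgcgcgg
Car4: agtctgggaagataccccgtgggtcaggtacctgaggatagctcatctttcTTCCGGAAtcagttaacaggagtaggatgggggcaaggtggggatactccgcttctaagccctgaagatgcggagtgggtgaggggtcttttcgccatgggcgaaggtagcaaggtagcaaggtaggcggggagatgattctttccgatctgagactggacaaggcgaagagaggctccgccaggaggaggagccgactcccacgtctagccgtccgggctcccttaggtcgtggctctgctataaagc
Ednrb: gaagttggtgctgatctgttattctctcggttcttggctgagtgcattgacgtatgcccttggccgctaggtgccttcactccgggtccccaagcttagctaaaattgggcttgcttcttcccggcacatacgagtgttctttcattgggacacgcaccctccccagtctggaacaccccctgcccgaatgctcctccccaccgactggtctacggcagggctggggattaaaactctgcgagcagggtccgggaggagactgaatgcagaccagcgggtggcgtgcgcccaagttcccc
CCGGAA was present once in the Kdr promoter, with its first base 153 bases before the start site, and in 2 overlapping copies in the Car4 promoter, at 199 and 197 bases before it. Neither Ednrb nor Prx held it, and 14.9% of the 32851 RefSeq mouse promoters did. AGGAAG was in none of the 4 promoters and in 35.4% of all promoters. Likewise the GATA motif AGATAA (11.2% of all), the SOX motif ACAATG (12.6%) and the KLF motif CCACACCC (3.56%) were in none of the 4. TATAAA was in the Car4 promoter, after the start site, and in 13.6% of all promoters. These matches describe the letters in these windows only.

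The estimated depth was 10.1 to 33.1 M reads per sample, so that 3 reads corresponded to at most 0.298 CPM, well under the level of every one of the 10 genes. The abundant non-coding 7SL RNA (Rn7s1 and Rn7s2) accounted for 9.92% to 42.0% of a sample's CPM, and every other gene's CPM is lowered when that share is large. The share exceeded 25% in 5 of 7 HDM, 4 of 7 HDM + Dex, 1 of 5 naïve adult and no naïve aged samples. By Xist and Ddx3y, all naïve adult mice were female, and 2 of 5 naïve aged, 2 of 7 HDM and 4 of 7 HDM + Dex mice were female. The 5 HDM males were the 5 HDM samples with a share over 25%, so that within HDM the sex and the share cannot be told apart. Fold changes are therefore given on the deposited scale, and calls that were lost or gained after rescaling each sample by the median ratio of its genes to their geometric mean are stated beside them.

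**Figure D1:**
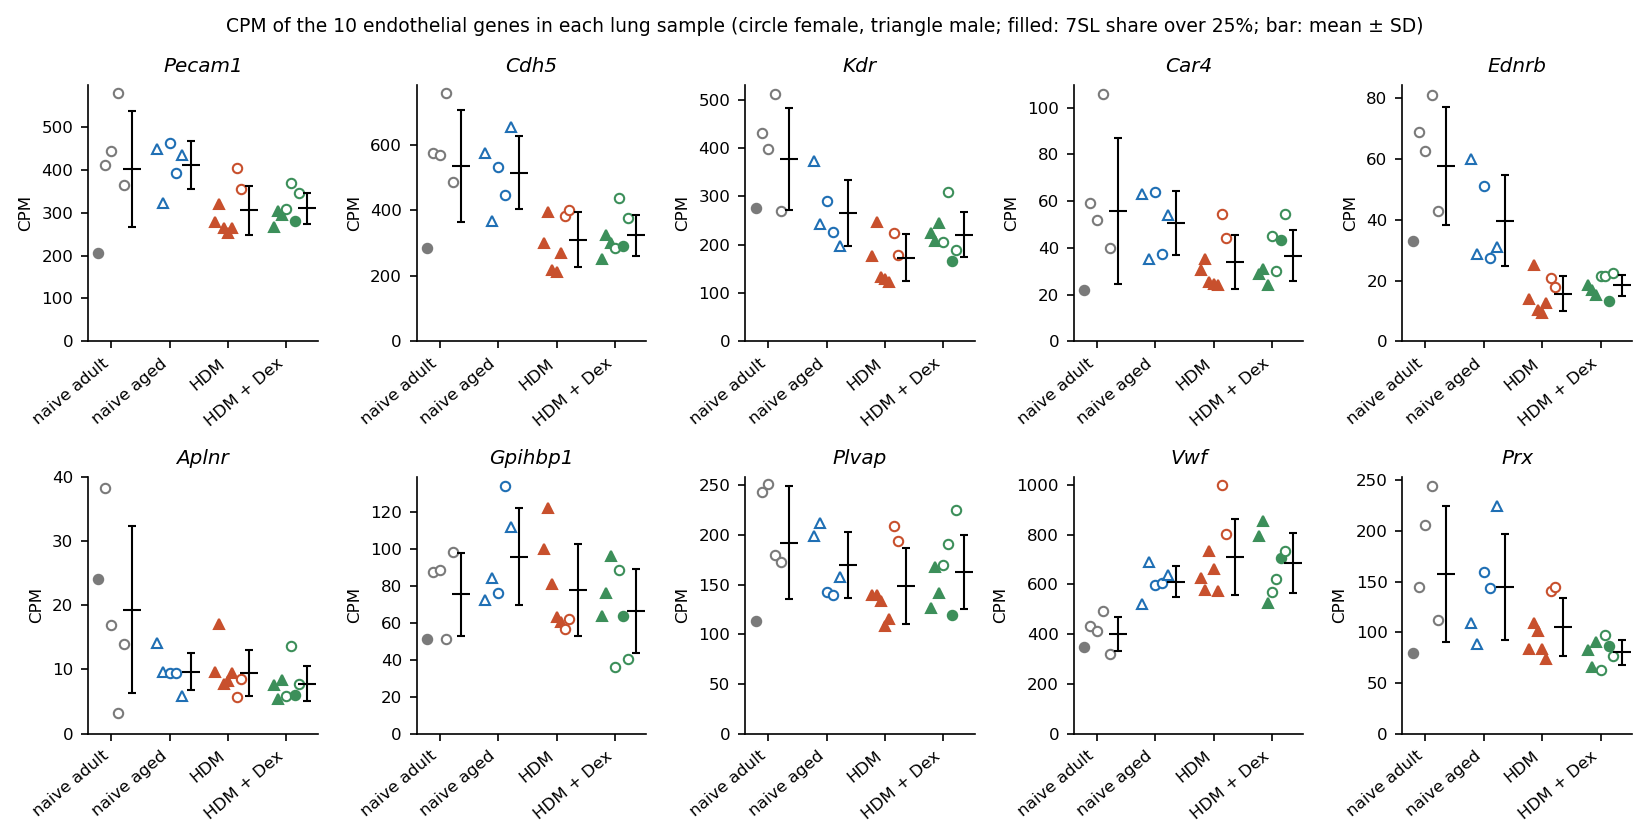
CPM (linear axes from 0) of each of the 10 genes in each sample, in replicate order within the 4 groups; circles are females, triangles males, filled symbols have a 7SL share over 25%, and black bars are mean ± SD. For Ednrb, all 7 HDM and all 7 HDM + Dex samples lie below all 5 naïve aged samples, whereas Vwf is lowest in the naïve adult samples.

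Per kilobase of merged exons (GENCODE vM21, GRCm38), the mean level in naïve aged lung was highest for Cdh5, at 123 CPM per kb, followed by Plvap (85.6) and Pecam1 (66.2). Vwf (37.9), Gpihbp1 (37.6), Kdr (29.4), Prx (26) and Car4 (25.8) formed a middle range. Ednrb (9.28) and Aplnr (2.62 CPM per kb) were the lowest. In HDM lung Vwf stood at 44.2 CPM per kb, close to Pecam1 at 49.1, and Ednrb had dropped to 3.69.

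HDM vs. naïve aged asked how allergen challenge of the aged lung altered these genes. Ednrb, Cdh5, Kdr and Pecam1 were lower in HDM lung, and no gene of the 10 was higher (limma on log2(CPM + 1), Benjamini-Hochberg adjusted p under 0.05). The fall was deepest for the aerocyte receptor Ednrb, to 0.397 of its naïve aged mean, and shallowest among the 4 for Pecam1, to 0.741. Over all genes tested 25.3% were called, 21.2% lower and 4.04% higher, which stand beside the 4 of 10 as background; the count itself was not tested. The median log2 fold change of the 10 genes was -0.43, with 9 of the 10 below 0, beside a median of -0.23 over all genes. After rescaling, which brought the median of all genes to -0.02, the 10 genes had a median of -0.19. Then 2 were lower (Ednrb and Cdh5; 11.8% of all genes) and 1 was higher (Vwf; 10.7% of all genes).

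Ednrb encodes the endothelin receptor type B (chromosome 14, 103814625 to 103844402, minus strand, GRCm38), which binds and clears endothelins. Its level in naïve aged replicates 1 to 5 was 60.1, 28.6, 51.1, 27.2 and 31.1 CPM. In HDM samples it ranged from 9.40 to 25.2 CPM with a median of 13.8. Every HDM sample was below every naïve aged sample, an absence of overlap that 7.69% of all genes showed in this direction. Mean Ednrb fell from 39.6 ± 15 CPM (SD, n = 5) to 15.7 ± 5.79 CPM (SD, n = 7), a log2 fold change of -1.28 ± 0.23 (SE; limma adjusted p = 0.000906). The two-sided exact permutation test of the means gave p = 0.00253 before adjustment, the smallest this design allows. After rescaling the log2 fold change was -1.04 (limma adjusted p = 0.00144), and 32 of 35 pairs of samples had the lower value in HDM. With the 7SL share as a covariate it was -0.84 (limma adjusted p = 0.0421), the only call among the 10 genes in that fit, in which 2.25% of all genes were lower.

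Within females, Ednrb was 27.2 and 51.1 CPM in naïve aged and 17.8 and 20.8 CPM in HDM lung. Within males it was 39.9 ± 17.5 CPM (SD, n = 3) in naïve aged and 14.3 ± 6.33 CPM (SD, n = 5) in HDM lung. That the 2 groups did not overlap within either sex follows from the absence of overlap over all samples, and adds nothing to it. After rescaling, HDM male replicate 2 (27.8 CPM) was above naïve aged male replicates 2 and 5 (27.3 and 26.3 CPM). The log2 fold change was -0.92 in females (limma adjusted p = 0.272) and -1.42 in males (limma adjusted p = 0.00316), and the difference between the sexes was not tested. The HDM females are also the 2 HDM samples with a 7SL share under 25%, and over all aged samples under 25% the value was -0.93 (limma adjusted p = 0.0623).

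Cdh5 encodes VE-cadherin, the adhesion molecule of endothelial junctions (chromosome 8, 104101625 to 104144511, plus strand). Naïve aged replicates 1 to 5 gave 576, 369, 532, 447 and 654 CPM, and HDM samples gave 211 to 399.9 CPM with a median of 300.4. The groups overlapped only through naïve aged replicate 2, which was below 3 HDM samples. Its mean fell from 515 ± 111 to 311 ± 82.7 CPM (SD), a log2 fold change of -0.74 ± 0.19 (SE; limma adjusted p = 0.00671). After rescaling it was -0.50 (limma adjusted p = 0.0215). In males the means were 533 and 279 CPM and in females 489 and 392 CPM, with log2 fold changes of -0.93 (limma adjusted p = 0.00763) and -0.31 (limma adjusted p = 0.631).

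Kdr encodes VEGF receptor 2, the main signalling receptor for VEGF-A in endothelium (chromosome 5, 75932827 to 75978458, minus strand). It was 372, 242, 290.1, 226 and 198 CPM in naïve aged replicates 1 to 5, and 123 to 247 CPM with a median of 176 in HDM samples. The groups overlapped, in that HDM replicates 2 and 6 were above the lowest naïve aged sample. The log2 fold change was -0.63 ± 0.19 (SE; limma adjusted p = 0.0196), and -0.38 after rescaling (limma adjusted p = 0.154), so that the call rests on the deposited scale. It was also lost without naïve aged replicate 1 (-0.50, limma adjusted p = 0.0779) or replicate 3 (-0.59, limma adjusted p = 0.0548).

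Pecam1 encodes the adhesion molecule CD31 of endothelial cells, platelets and leukocytes (chromosome 11, 106654217 to 106750628, minus strand). It was 448, 323, 462, 394 and 435 CPM in naïve aged replicates 1 to 5 and 252 to 404 CPM with a median of 279 in HDM samples. The 2 HDM females, at 404 and 355 CPM, were the highest of the HDM group and lay within the naïve aged range. Its log2 fold change was -0.44 ± 0.13 (SE; limma adjusted p = 0.0211), and -0.19 after rescaling (limma adjusted p = 0.144). The call was likewise lost without naïve aged replicate 1 (-0.41, limma adjusted p = 0.0605) or replicate 3 (-0.40, limma adjusted p = 0.0652).

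Car4, the membrane-bound carbonic anhydrase of alveolar capillaries (chromosome 11, 84957786 to 84966044, plus strand), was 50.7 ± 13.7 CPM in naïve aged and 34.0 ± 11.5 CPM (SD) in HDM lung. Its log2 fold change of -0.58 ± 0.23 (SE) had a limma adjusted p of 0.0621. As deposited, HDM males, at 24.2 to 35.1 CPM, were below all naïve aged samples. The HDM females, at 54.4 and 44.0 CPM, were within the naïve aged range. Within HDM, sex and the 7SL share cannot be told apart. After rescaling, HDM male replicate 2 (38.7 CPM) was above naïve aged replicates 2 and 4 (33.8 and 32.6 CPM). The log2 fold change over both sexes was then -0.34 (limma adjusted p = 0.158). With the 7SL share as a covariate it was -0.02 (limma adjusted p = 0.971). In males alone the log2 fold change was -0.82 (limma adjusted p = 0.00678) and in females 0.01 (limma adjusted p = 0.997). In the male comparison 6 of the 10 genes were called lower (28.1% of all genes), with Plvap as the other added gene, and in the female comparison none was (2 at an unadjusted p under 0.05), where limma called 9 of all genes (0.0507%).

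Car4 passed when certain single samples were left out, namely without naïve aged replicate 2 (-0.70, limma adjusted p = 0.0366) or replicate 4 (-0.68, limma adjusted p = 0.0481). It also passed without HDM replicate 6 (-0.70, limma adjusted p = 0.0191) or replicate 7 (-0.65, limma adjusted p = 0.0386), or without HDM + Dex replicate 7 (-0.58, limma adjusted p = 0.0488).

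The general capillary genes had smaller fold changes than the 4 genes called as deposited. Gpihbp1, which anchors lipoprotein lipase on the capillary wall (chromosome 15, 75596628 to 75599481, plus strand), was 96.0 ± 26.5 CPM in naïve aged and 78.0 ± 24.8 CPM (SD) in HDM lung (log2 fold change -0.31 ± 0.24 SE, limma adjusted p = 0.343). With the 7SL share as a covariate Gpihbp1 was at -0.79 (limma adjusted p = 0.058), below every gene of the 10 but Ednrb, and it was at -0.64 in samples with a share under 25% and at -0.76 in females (limma adjusted p = 0.246 and 0.442), against -0.10 in males. Plvap, the diaphragm protein of caveolae and fenestrae (chromosome 8, 71497765 to 71511752, minus strand), was 170.1 ± 33.2 and 149 ± 38.4 CPM (SD), a log2 fold change of -0.21 ± 0.18 (SE) that turned to 0.04 after rescaling. Aplnr, the apelin receptor (chromosome 2, 85136225 to 85139923, plus strand), was 9.68 ± 2.94 and 9.46 ± 3.61 CPM (SD), with a log2 fold change of -0.05 ± 0.23 (SE) that turned to 0.18 after rescaling. None of these 3 passed the limma test on either scale or had an unadjusted p under 0.05 as deposited.

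Vwf encodes von Willebrand factor, which carries platelets to damaged vessel wall (chromosome 6, 125546774 to 125686679, plus strand). It was 520.0, 690.3, 599, 603 and 636 CPM in naïve aged replicates 1 to 5 and 574 to 998 CPM with a median of 660.2 in HDM samples. The 2 HDM females were the highest, at 998 and 804 CPM, and the HDM males overlapped with naïve aged samples. The log2 fold change was 0.20 ± 0.15 (SE; limma adjusted p = 0.334) as deposited and 0.45 ± 0.15 (SE; limma adjusted p = 0.0408) after rescaling, when 33 of 35 pairs of samples were higher in HDM. Megakaryocytes and platelets also make Vwf. Of the 4 of 6 platelet genes that could be tested, Ppbp was lower (log2 fold change -1.54, limma adjusted p = 0.00315) and none was higher, and the summed level of the 6 was 30.4 to 52.9 CPM in naïve aged and 23.8 to 65.7 CPM in HDM lung.

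Prx encodes periaxin, a scaffold protein of myelinating Schwann cells that lung endothelium also makes (chromosome 7, 27499324 to 27520214, plus strand). Unlike the other genes, its deposited entry starts elsewhere, at 27497388. The gene model that was counted therefore differs from the GENCODE model used here for its level per kb and its overlap. It was 145 ± 52.5 CPM in naïve aged and 105 ± 28.4 CPM (SD) in HDM lung, with a log2 fold change of -0.43 ± 0.20 (SE; limma adjusted p = 0.118), which became -0.59 (limma adjusted p = 0.0351) without naïve aged replicate 2. Sox10, a transcription factor of Schwann cells, stood below 1 CPM on average. Exons of Prx overlap those of the antisense gene Gm15541 over 300 bases, and Gm15541 was 6.37 ± 1.91 CPM in naïve aged and 5.20 ± 1.36 CPM (SD) in HDM lung. How strand was handled in counting is not given in the sources used here, so reads in the overlap cannot be told apart.

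**Figure D2:**
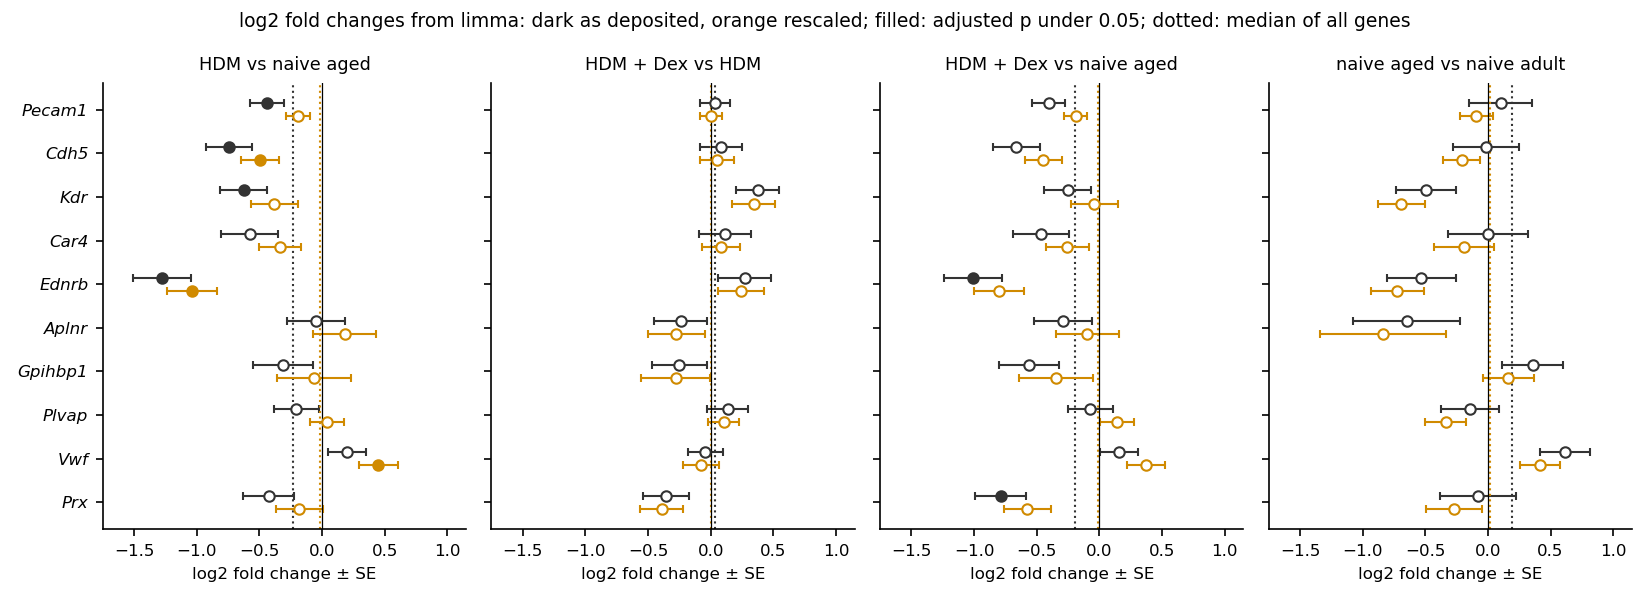
limma log2 fold changes ± SE of the 10 genes in the 4 comparisons, on the deposited scale (dark) and after median-of-ratios rescaling (orange); filled points have an adjusted p under 0.05 and dotted lines mark the median of all genes. Ednrb is the leftmost point of HDM vs. naïve aged on both scales, and no point is filled in HDM + Dex vs. HDM or in naïve aged vs. naïve adult.

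The relation between the genes was next examined with Cdh5 of the same sample as the denominator, which cancels a scaling shared by all genes of a sample, apart from the constant of 1 added before the log in the tested differences. The ratios could still differ with the 7SL share, as in HDM lung the mean of Gpihbp1 was 85.4 CPM beside 279 CPM of Cdh5 in samples over 25%, and 59.4 CPM beside 392 CPM in samples under 25%. The mean log2 ratio of Ednrb to Cdh5 was -3.75 ± 0.47 (SD) in naïve aged and -4.34 ± 0.19 in HDM lung, so Ednrb was lower beyond the fall of Cdh5 (difference on the log2(CPM + 1) scale -0.53, limma adjusted p = 0.0275). Relative to Cdh5, 1.78% of all genes were lower and 46.6% were higher, so a higher ratio alone was common. Vwf (0.95, limma adjusted p = 0.00279), Aplnr (0.70, limma adjusted p = 0.0302) and Plvap (0.54, limma adjusted p = 0.0238) were higher relative to Cdh5. Kdr (0.12), Car4 (0.16), Pecam1 (0.30), Prx (0.32) and Gpihbp1 (0.43) did not pass the test. Thus 1 of the 2 aerocyte genes fell relative to Cdh5 and the other did not pass.

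**Figure D3:**
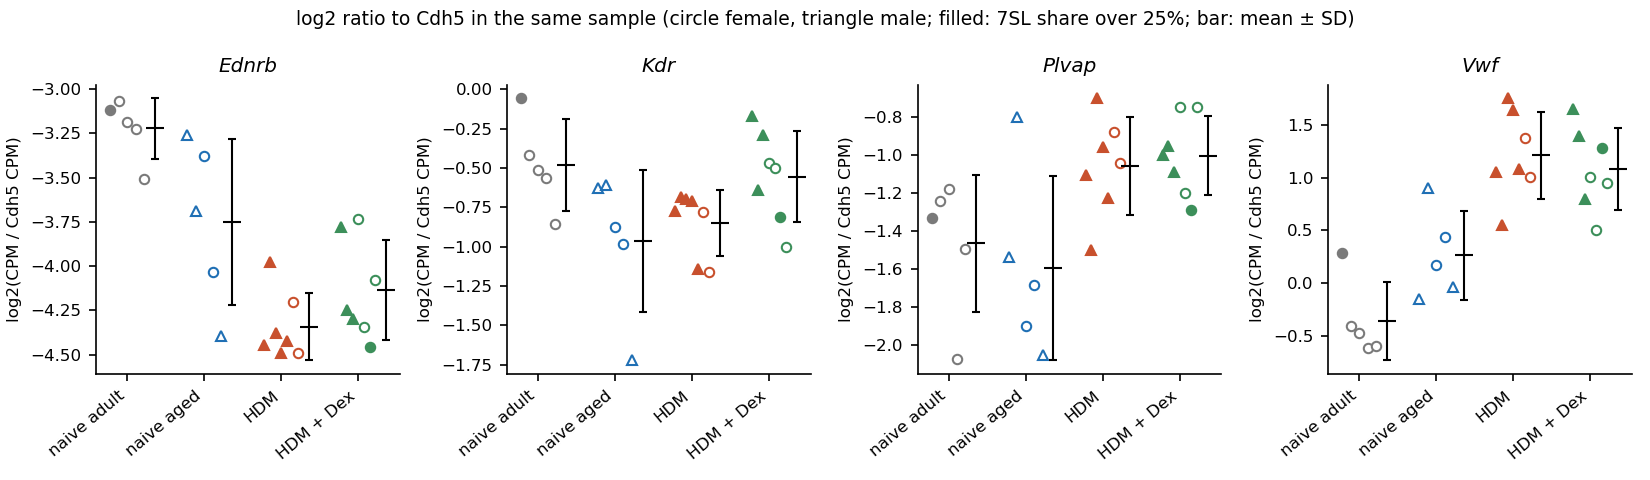
log2 ratio of Ednrb, Kdr, Plvap and Vwf to Cdh5 CPM in the same sample (vertical axes, log2 scale) by group; circles are females, triangles males, filled symbols have a 7SL share over 25%, and bars are mean ± SD. Ednrb ratios are lowest in HDM samples (mean -4.34) and Vwf ratios highest there (mean 1.21).

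Other endothelial genes were taken from lists that do not contain the 10 genes. Their counts stand beside 21.2% of all genes called lower as deposited and 11.8% after rescaling. Of 24 further pan-endothelial genes, 11 were lower in HDM lung and all 24 had a negative log2 fold change (median -0.40, beside -0.23 for all genes). They included S1pr1, the sphingosine-1-phosphate receptor that tightens the endothelial barrier (-1.09, limma adjusted p = 0.00105), Ptprb, the phosphatase VE-PTP (-0.90, limma adjusted p = 0.0022), and Flt1, VEGF receptor 1 (-0.75, limma adjusted p = 0.00478). After rescaling 5 of the 24 were lower and 20 of the 24 were negative, with a median of -0.16, beside -0.02 for all genes. Of 6 other aerocyte genes, 3 were lower, namely Fibin (-1.06, limma adjusted p = 0.00612), Kitl (-0.59, limma adjusted p = 0.0156) and Chst1 (-0.50, limma adjusted p = 0.0379), and Fibin alone was called after rescaling. Of 5 other general capillary genes, Sema3c (-0.94, limma adjusted p = 0.00142) and Cd300lg (-0.68, limma adjusted p = 0.0116) were lower, and Glp1r (-0.64) had a limma adjusted p of 0.0798. After rescaling Sema3c (-0.69, limma adjusted p = 0.00315) was still lower and Cd300lg (-0.46, limma adjusted p = 0.104) did not pass.

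The lists of other vessel types stand beside 21.2% of all genes called lower and 4.04% called higher. Of 8 arterial genes, Bmx (-1.42, limma adjusted p = 0.00168) and Efnb2, the arterial ephrin-B2 (-0.67, limma adjusted p = 0.0162), were lower, and Gja5 was at -0.63 (limma adjusted p = 0.0533). After rescaling Bmx alone was called (-1.23, limma adjusted p = 0.00302), and Efnb2 did not pass (-0.42, limma adjusted p = 0.176). Of 5 venous genes, Nr2f2, the factor that specifies veins (-0.58, limma adjusted p = 0.00899), and Slc6a2 (-0.83, limma adjusted p = 0.0239) were lower. Ackr1, the chemokine-binding receptor of venules, was higher (0.84, limma adjusted p = 0.0163), from 0.417 ± 0.254 to 1.61 ± 0.893 CPM (SD). Its naïve aged mean was low, as 3 reads corresponded to 0.106 to 0.210 CPM in those samples. Of 6 lymphatic genes Lyve1 was lower (-0.73, limma adjusted p = 0.0118), while Flt4 (-0.32, limma adjusted p = 0.21) and Mmrn1 (-0.50, limma adjusted p = 0.269) did not pass.

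Of 6 genes of endothelial activation, 1 was lower (21.2% of all genes) and none was higher (4.04%) as deposited. After rescaling 3 of the 6 were higher (10.7% of all genes). Selp, the P-selectin that captures leukocytes, had a log2 fold change of 1.06 (limma adjusted p = 0.0501) as deposited and 1.24 (limma adjusted p = 0.018) after rescaling. Icam1 (0.60, limma adjusted p = 0.00397) and Vcam1 (0.50, limma adjusted p = 0.0385) were higher after rescaling. Angpt2, which loosens vessel walls, was at -0.41 as deposited (limma adjusted p = 0.17).

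**Figure D4:**
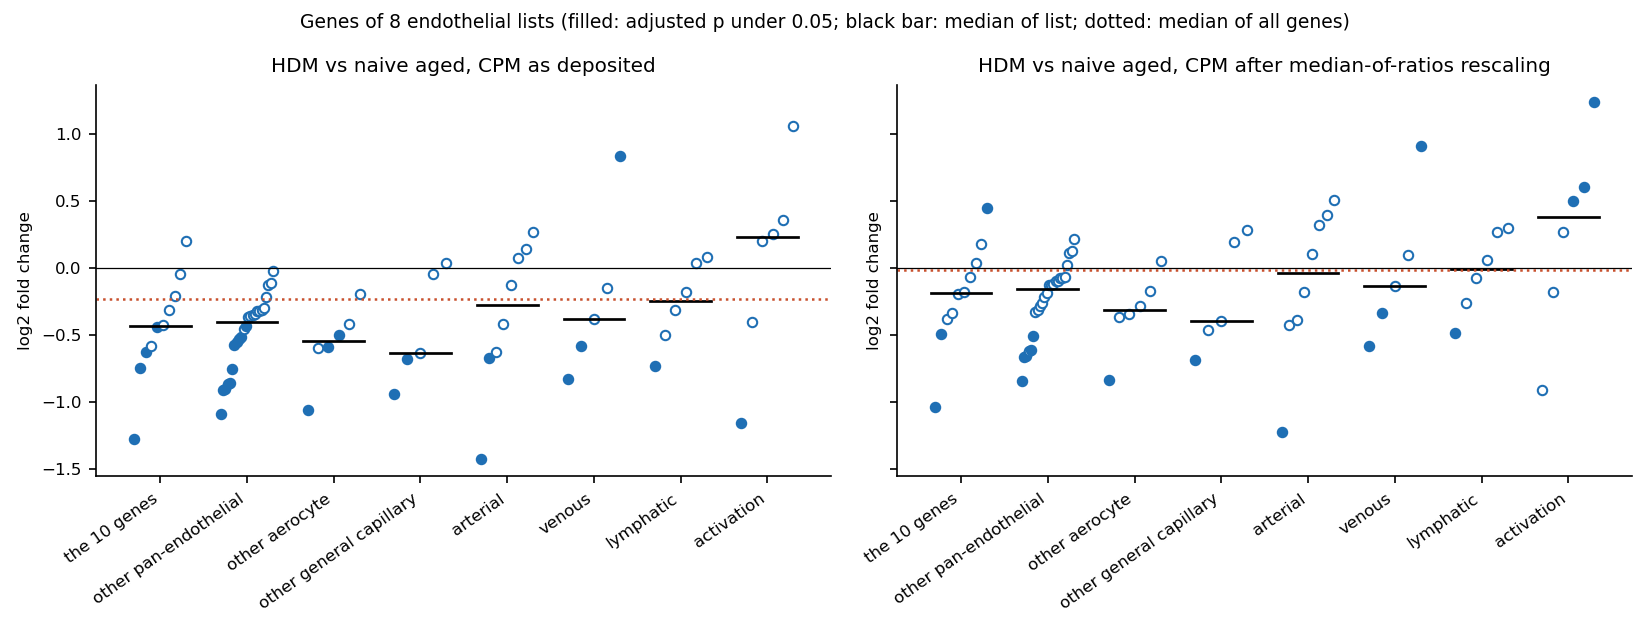
limma log2 fold change of each gene of 8 endothelial lists in HDM vs. naïve aged (vertical axis), on the deposited scale and after rescaling; filled points have an adjusted p under 0.05, black bars are list medians and the dotted line is the median of all genes. The 24 other pan-endothelial genes all lie below 0 as deposited (median -0.40) and 20 of them do after rescaling. The activation list has the highest median on both scales.

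Ligands and enzymes that act on these receptors and proteins were also lower in part. Of the 8 of 10 listed that could be tested, 4 were lower (21.2% of all genes) and 1 was higher (4.04% of all genes). Vegfa, the ligand of Kdr, fell from 707 ± 113 to 443 ± 119 CPM (SD; log2 fold change -0.70, limma adjusted p = 0.00505), and it also passed after rescaling (-0.45, limma adjusted p = 0.0392). Edn1, a ligand of Ednrb, fell from 53.8 ± 22.2 to 23.2 ± 10.4 CPM (SD; -1.15, limma adjusted p = 0.0134), and Edn3, another, was at -0.83 (limma adjusted p = 0.0184). After rescaling Edn1 (limma adjusted p = 0.0808) and Edn3 (limma adjusted p = 0.0548) no longer passed, nor did Vegfb, another VEGF (limma adjusted p = 0.033 as deposited and 0.0518 after rescaling). Pgf, the ligand of Flt1, was higher on both scales (0.77, limma adjusted p = 0.00698).

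Lists of other cell types were examined in the same fit, where 21.2% of all genes were lower and 4.04% higher (11.8% and 10.7% after rescaling). Of 6 type 1 alveolar genes, Rtkn2 (-0.98, limma adjusted p = 0.00773) and Hopx (-0.83, limma adjusted p = 0.00791) were lower, Pdpn was higher after rescaling only (0.77, limma adjusted p = 0.00653), and the summed level was 984 to 1958 CPM in naïve aged and 681 to 1501 CPM in HDM lung. No type 2 alveolar, leukocyte or red cell gene (0 of 6 each) passed limma's test as deposited, while 2, 1 and 1 had an unadjusted p under 0.05; 2 leukocyte genes were higher after rescaling. All 6 heart muscle genes were lower (median log2 fold change -2.53), and their summed level was 554 to 1033 CPM in naïve aged and 21.8 to 424 CPM in HDM lung. Among 6 fibroblast genes Col1a1 (1.58, limma adjusted p = 4.49e-05), Col3a1 (1.80, limma adjusted p = 8.88e-05) and Col1a2 (1.25, limma adjusted p = 0.000185) were higher and 3 others lower, of which Pdgfra alone was lower after rescaling. Of 6 pericyte genes Higd1b was lower as deposited (-0.53, limma adjusted p = 0.0442) and did not pass after rescaling (-0.34, limma adjusted p = 0.139), and of 6 smooth muscle genes Cnn1 was lower (-1.0, limma adjusted p = 0.000998). The part of these cell types in the endothelial values was not tested.

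HDM + Dex vs. HDM asked whether dexamethasone altered the challenged lung. None of the 10 genes passed limma's test, where 171 of 17744 genes (0.964%) did, a count that ran from 2 (without HDM replicate 5) to 544 (without HDM replicate 2) when 1 sample was left out. At an unadjusted p under 0.05 there was 1, Kdr, and none by the exact permutation test. None passed after rescaling either, where 2.77% of all genes did. Their log2 fold changes ran from -0.36 to 0.37, with a median of 0.06 beside 0.03 for all genes. Kdr had the highest value, at 221 ± 46.2 CPM with Dex against 173 ± 48.3 CPM (SD) without it (log2 fold change 0.37 ± 0.17 SE, limma adjusted p = 0.338). Prx had the lowest, at 80.2 ± 12.5 against 105 ± 28.4 CPM (SD; -0.36 ± 0.18 SE, limma adjusted p = 0.406). Ednrb was 18.5 ± 3.49 CPM (SD) with Dex, from 13.2 to 22.4 CPM with a median of 18.5, and overlapped with the HDM samples (0.27 ± 0.21 SE, limma adjusted p = 0.641). Cdh5 (0.08 ± 0.17 SE), Pecam1 (0.03 ± 0.12 SE), Car4 (0.11 ± 0.21 SE), Plvap (0.14 ± 0.16 SE) and Vwf (-0.04 ± 0.14 SE) differed by less than their standard error. Aplnr (-0.24 ± 0.21 SE) and Gpihbp1 (-0.25 ± 0.22 SE) were slightly below 0. None of the other endothelial genes and ligands listed passed limma's test on either scale (6 had an unadjusted p under 0.05 as deposited, among them Nr2f2 and Gja5).

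HDM + Dex vs. naïve aged shares its controls with HDM vs. naïve aged, so the values stand side by side only. Of the 10 genes, 2 were lower and none was higher, where 1.44% of all genes were lower and 0.445% were higher. Ednrb was below every naïve aged sample in all 7 HDM + Dex samples (an absence of overlap shown by 1.87% of all genes), with a log2 fold change of -1.01 ± 0.23 (SE; limma adjusted p = 0.0316). Prx was 63.0 to 97.0 CPM with a median of 82.5 in HDM + Dex and 109, 88.1, 159, 144 and 224 CPM in naïve aged replicates 1 to 5. Only naïve aged replicate 2 lay within the HDM + Dex range, and the log2 fold change was -0.79 ± 0.20 (SE; limma adjusted p = 0.0447). Cdh5 (-0.66, limma adjusted p = 0.0633), Gpihbp1 (-0.56, limma adjusted p = 0.19) and Pecam1 (-0.40, limma adjusted p = 0.112) did not pass. After rescaling neither Ednrb (-0.80, limma adjusted p = 0.0547) nor Prx (-0.57, limma adjusted p = 0.132) passed, nor did any other of the 10, where 0.964% of all genes did; 4 had an unadjusted p under 0.05. Each call was lost when certain single samples were left out. Ednrb no longer passed without any 1 of naïve aged replicates 1, 3 and 5 or HDM + Dex replicates 1, 2, 3 and 6 (-1.07 to -0.84, limma adjusted p 0.0552 to 0.107). Prx no longer passed without any 1 of naïve aged replicates 1, 3, 4 and 5, HDM replicate 4 or HDM + Dex replicates 1, 2, 3 and 6 (-0.87 to -0.61, limma adjusted p 0.0541 to 0.138). Cdh5 passed without naïve aged replicate 2 (-0.78, limma adjusted p = 0.0404), HDM replicate 3 (-0.66, limma adjusted p = 0.0486), or HDM + Dex replicate 5 (-0.74, limma adjusted p = 0.0421) or 7 (-0.70, limma adjusted p = 0.0419). Of the other endothelial genes, S1pr1 (-1.08, limma adjusted p = 0.0111), Cd93 (-0.59, limma adjusted p = 0.047), Fibin (-1.25, limma adjusted p = 0.0202), Sema3c (-0.82, limma adjusted p = 0.0289) and Bmx (-1.11, limma adjusted p = 0.0454) were lower. After rescaling S1pr1 (-0.87, limma adjusted p = 0.0105) and Fibin (-1.05, limma adjusted p = 0.0262) were still lower, whereas Cd93 (limma adjusted p = 0.0846), Sema3c (limma adjusted p = 0.0547) and Bmx (limma adjusted p = 0.0859) did not pass.

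Naïve aged vs. naïve adult asked how these genes differ with age in unchallenged lung. None of the 10 genes passed limma's test, where 116 of 17744 genes (0.654%) did, and 1, Vwf, had an unadjusted p under 0.05. None passed after rescaling, where 1.08% of all genes did and 3 of the 10 had an unadjusted p under 0.05. The mice also differed in sex, since all adults were female. Vwf was 348, 433, 410.4, 493 and 322 CPM in naïve adult replicates 1 to 5 and lower than all naïve aged samples. An absence of overlap in this direction was seen in 2.91% of all genes. The mean rose from 401 ± 68.5 to 609.6 ± 62.0 CPM (SD), a log2 fold change of 0.61 ± 0.20 (SE; limma adjusted p = 0.226; unadjusted two-sided exact permutation p = 0.00794, the smallest this design allows). The median of all genes was 0.19 on this scale. After rescaling, which brought it to 0.02, the Vwf groups overlapped and the value was 0.42 (limma adjusted p = 0.26). That overlap came from naïve adult replicate 1 alone, at 558 CPM after rescaling. The other adults, at 308 to 431 CPM, stayed below the lowest naïve aged sample, at 461 CPM. Naïve adult replicate 1, with a 7SL share of 42.0%, had the lowest adult value of Pecam1, Cdh5, Car4, Ednrb, Plvap and Prx, and was level with replicate 4 as the lowest for Gpihbp1 (51.4 CPM in both).

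Kdr (378 ± 105 and 266 ± 68.4 CPM, SD) and Ednrb (57.6 ± 19.5 and 39.6 ± 15 CPM, SD) had lower means in naïve aged than in naïve adult lung. Their log2 fold changes were -0.49 ± 0.24 (SE; limma adjusted p = 0.455) and -0.53 ± 0.27 (SE; limma adjusted p = 0.475), and after rescaling -0.69 (limma adjusted p = 0.116) and -0.72 (limma adjusted p = 0.146). Aplnr spread widest, at 24.1, 38.3, 17, 3.24 and 14 CPM in naïve adult replicates 1 to 5 against 5.79 to 14.1 CPM in naïve aged samples (-0.65 ± 0.43 SE, limma adjusted p = 0.555). Pecam1 (0.10), Cdh5 (-0.01), Car4 (0.00), Prx (-0.08), Plvap (-0.14) and Gpihbp1 (0.36) did not pass, and Pecam1 and Car4 turned negative after rescaling (-0.09 and -0.19). Of the lists, Apln, the apelin of aerocytes and the ligand of Aplnr, fell from 29.9 ± 6.38 to 13.8 ± 1.72 CPM (SD; -1.04 ± 0.19 SE, limma adjusted p = 0.0131). Slc6a2, the noradrenaline transporter, was higher (1.24, limma adjusted p = 0.0318), and no other gene of the endothelial lists was called as deposited. After rescaling Apln (-1.22, limma adjusted p = 0.000665) and Emp2 (-0.64, limma adjusted p = 0.0476) were the 2 of 6 aerocyte genes called lower. Among other cell types, the fibroblast genes Col1a1, Col1a2 and Col3a1 were lower in naïve aged lung on both scales (limma adjusted p = 0.00147, 0.0224 and 0.033 as deposited). After rescaling 1 of 6 smooth muscle and 1 of 6 pericyte genes were also called lower, where 1.08% of all genes were called. Of these lists 6 and 5 genes then had an unadjusted limma p under 0.05. As deposited no gene of either list passed limma's test, and 2 of each had an unadjusted p under 0.05. No leukocyte gene passed limma's test, but the median log2 fold change of the 6 was 0.83, with 5 at an unadjusted p under 0.05, and their summed level was 857 to 2469 CPM in naïve adult and 2432 to 3265 CPM in naïve aged lung. The part of these cell types in the values was not tested.

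As a description only, the genes whose log2(CPM + 1) was most like the mean of the 10 genes over the 24 samples were, as deposited, Dpysl2 (Pearson r = 0.954), Cavin2 (0.943), Arhgef10 (0.935), Cav1 (0.933) and Fermt2 (0.931). After rescaling they were Afap1l1 (0.918), Sema6a (0.917), Arhgef10 (0.911), Colgalt2 (0.910) and Tmem204 (0.909). All samples share the depth and scaling of their library, and the order of groups enters these values. Among the 10 genes themselves, after rescaling and removal of group means, Pecam1 and Cdh5 were the most alike (r = 0.802, 24 samples), followed by Kdr and Ednrb (0.755). Car4 had its lowest values with Aplnr (-0.545) and Gpihbp1 (-0.537).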

How the data were processed

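RNA-Seq was performed on the left lung lobe of 24 mice, and the groups followed the sample labels. Per the paper's methods and the labels, the authors prepared stranded mRNA libraries, sequenced both ends and used Picard, STAR and limma. FastQC and DESeq2 are also named in the submitters' processing notes. They deposited CPM, that is counts scaled to a common library total, each raised by 0.0001. The labels name the build mm9, but 23140 of the 23276 symbols found in GENCODE vM21 had the start of GRCm38, which was used here. Since 80.3% to 85.0% of values below 20 reads were whole within 0.05 of a read, counts were not recovered.

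Values were tested as log2(CPM + 1), where fold changes of low genes are understated, with limma 3.58.1 in R 4.3.3 (mean-variance trend, Benjamini-Hochberg adjustment over the 17744 genes whose mean reached 1 CPM, threshold 0.05). One fit held the 19 aged samples and another the 10 naïve samples. Means of single genes were also tested by exact permutation (two-sided). No source says whether the samples of a group came from separate cages or batches. The p-values therefore compare group differences with the spread between these samples, and differences between cages or batches could not be assessed. The fits were tested on simulated data. Alternatives were rescaling, a pseudocount of 0.1, no filter, values relative to Cdh5, covariates, a replicate block, fits of the compared groups only, a threshold of 0.01 and leaving out each sample. The replicate block was fitted to replicates 1 to 5 only.

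The 10 genes and the lists were chosen with earlier results of these data known. Named genes were the 10, the 3 of each list with the lowest adjusted p in HDM vs. naïve aged, genes that define a cell type, and the 5 genes most alike on each scale; Vcam1, Angpt2, Edn3, Vegfb, Apln, Cd93, Emp2, Pdgfra and the antisense gene Gm15541 were named after their values were seen. Python 3.11.15, numpy 2.4.6, scipy 1.17.1, pandas 2.3.3 and matplotlib 3.10.9 were used.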

Additional observations from a re-analysis of the deposited data

Results flagged for a closer look

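Among the 40 sets of CPM values (10 genes in 4 groups), 2 held a sample that stood far from the rest by Dixon's criterion, as chance gives for about 1 in 20 sets. Aplnr reached 17.1 CPM in HDM replicate 2, where the next sample was at 9.59 CPM. Aplnr was also high in HDM + Dex replicate 5, at 13.6 CPM beside 8.33 CPM for the next.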

How the results depend on the processing

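The count of lower genes in HDM vs. naïve aged was 4 as deposited, and 4 with a pseudocount of 0.1 or without the filter on low values. It was 4 with only the compared groups fitted, 6 in males only, 5 with a sex covariate, 1 with the 7SL share as a covariate, 2 at an adjusted p under 0.01, and 0 in females only and in samples with a share under 25% (limma; 2 genes at an unadjusted p under 0.05 in each). It ranged from 2 (without naïve aged replicate 1 or 3) to 6 (without naïve aged replicate 2) when 1 sample was left out. In HDM + Dex vs. naïve aged the count was 2, and it became 1 with a pseudocount of 0.1 or without the filter, 4 with a sex covariate, and 3 in males only or with only the compared groups fitted. It was 0 after rescaling, with the 7SL share as a covariate, at an adjusted p under 0.01, in females only and in samples with a share under 25% (limma; 4 genes at an unadjusted p under 0.05 in each of these fits, and 5 in the fit as deposited). It ranged from 0 to 3 when 1 sample was left out. The number of lower genes among all 17744 tested also shifted. In HDM + Dex vs. naïve aged it was 256 as deposited, 1749 with a sex covariate and 2030 in males only. With only the compared groups fitted it was 403. In HDM vs. naïve aged it was 3765 as deposited, 4090 with a sex covariate and 4979 in males only. The counts of the endothelial genes stayed at 0 in HDM + Dex vs. HDM and in naïve aged vs. naïve adult under every alternative run. The cause of these shifts was not tested, and selections of females, of males or by share, and rescaling of part of the samples, were chosen after seeing the data; the smaller selections also hold fewer samples.

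The fit with the replicate number as a block held replicates 1 to 5 only. It left out HDM replicates 6 and 7, the 2 HDM females, whose 7SL share was under 25%, and HDM + Dex replicates 6 and 7. Its counts thus differ from the others in the samples as well as in the block. In that fit 7 genes were lower in HDM vs. naïve aged and 0 in HDM + Dex vs. naïve aged (5 at an unadjusted p under 0.05). Of all 17744 genes tested, 6190 were lower in HDM vs. naïve aged with the block, against 3765 as deposited. In HDM + Dex vs. naïve aged 228 were lower with the block, against 256 as deposited. After removal of group means, the median correlation of same-numbered samples was 0.006, -0.09, 0.005 and -0.10 in the 4 comparisons. For other pairs it was -0.009, -0.02, -0.002 and 0.02. The lowest of same-numbered samples was -0.08, -0.24, -0.22 and -0.23, and the highest 0.30, 0.41, 0.02 and 0.05. So few pairs cannot decide whether the numbers pair the samples. Of the same-numbered samples, 1 of 5 correlated best with its own number in HDM vs. naïve aged, and none did in the other 3 comparisons.

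Over all genes, 4482 were called in HDM vs. naïve aged (717 higher and 3765 lower), and 3998 after rescaling (1896 higher and 2102 lower). That count became 1571 with the 7SL share as a covariate, 8575 relative to Cdh5, 6852 with the block, 1921 at an adjusted p under 0.01, 9 in females only and 1072 in samples with a share under 25%. In HDM + Dex vs. HDM it was 171, against 492 after rescaling, 83 without the filter, 293 with a sex covariate, 563 with the share as a covariate, 641 with the block, 302 in males only, 3 in females only, 11 in samples with a share under 25%, 2 at an adjusted p under 0.01 and 1 with only the compared groups fitted. In HDM + Dex vs. naïve aged it was 335, against 171 after rescaling, 213 without the filter, 5297 relative to Cdh5, 1929 with a sex covariate, 34 with the share as a covariate, 519 with only the compared groups fitted, 2196 in males only, 9 in females only, 28 in samples with a share under 25% and 30 at an adjusted p under 0.01. In naïve aged vs. naïve adult it was 116, against 191 after rescaling and 52 at an adjusted p under 0.01. With 1 sample left out, these counts ran from 2954 (without naïve aged replicate 3) to 5338 (without HDM replicate 6) in HDM vs. naïve aged and from 2 (without HDM replicate 5) to 544 (without HDM replicate 2) in HDM + Dex vs. HDM. They ran from 66 (without naïve aged replicate 3) to 772 (without HDM + Dex replicate 7) in HDM + Dex vs. naïve aged and from 74 (without naïve adult replicate 2) to 154 (without naïve adult replicate 1) in naïve aged vs. naïve adult.

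In HDM vs. naïve aged, the sign turned for Pecam1 (0.30), Kdr (0.12), Car4 (0.16), Aplnr (0.70), Gpihbp1 (0.43), Plvap (0.54) and Prx (0.32) under values relative to Cdh5, Car4 (0.00583) and Plvap (0.51) under females only, Aplnr (0.18) and Plvap (0.038) under rescaling, Aplnr (0.0814) under the replicate block, Aplnr (0.0894) under males only, Plvap (0.19) under the 7SL share as a covariate, Plvap (0.27) and Prx (0.0534) under samples with a share under 25%. In HDM + Dex vs. HDM, the sign turned for Pecam1 (-0.0474) under values relative to Cdh5, Pecam1 (-0.0363) and Car4 (-0.0277) under a sex covariate, Pecam1 (-0.0292) and Car4 (-0.00718) under the 7SL share as a covariate, Pecam1 (-0.22), Cdh5 (-0.20), Car4 (-0.20), Ednrb (-0.00238), Aplnr (0.14) and Plvap (-0.23) under females only, Pecam1 (-0.15), Cdh5 (-0.12), Car4 (-0.22), Aplnr (0.25) and Plvap (-0.0571) under samples with a share under 25%, Vwf (0.0636) under the replicate block, Vwf (0.16) under males only. In HDM + Dex vs. naïve aged, the sign turned for Pecam1 (0.26), Kdr (0.41), Car4 (0.20), Aplnr (0.38), Gpihbp1 (0.10) and Plvap (0.59) under values relative to Cdh5, Plvap (0.14) under rescaling, Plvap (0.24) under the 7SL share as a covariate, Plvap (0.28) under females only, Plvap (0.21) under samples with a share under 25%. In naïve aged vs. naïve adult, the sign turned for Pecam1 (-0.0927) and Car4 (-0.19) under rescaling, Pecam1 (-0.27) and Car4 (-0.50) under the 7SL share as a covariate, Pecam1 (-0.15) and Car4 (-0.31) under rescaling without naïve adult replicate 1, Pecam1 (-0.0608) and Car4 (-0.23) under rescaling of females only, Car4 (-0.0119) and Prx (0.0565) under a sex covariate, Car4 (-0.0119) and Prx (0.0565) under females only. Over the fits that left out 1 sample at a time, the log2 fold changes that crossed 0 ranged from -0.20 to 0.0899 for Aplnr in HDM vs. naïve aged, from -0.28 to 0.27 for Car4 in naïve aged vs. naïve adult, from -0.00388 to 0.15 for Cdh5 in HDM + Dex vs. HDM, from -0.22 to 0.13 for Cdh5 in naïve aged vs. naïve adult, from -0.00889 to 0.10 for Pecam1 in HDM + Dex vs. HDM, from -0.12 to 0.25 for Pecam1 in naïve aged vs. naïve adult, from -0.16 to 0.0121 for Plvap in HDM + Dex vs. naïve aged, from -0.29 to 0.11 for Prx in naïve aged vs. naïve adult and from -0.10 to 0.0411 for Vwf in HDM + Dex vs. HDM.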
